A study of Mus musculus with 4 samples.

Results

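The genes described here are 10 genes of the unfolded protein response and the integrated stress response: Atf4, Ddit3, Trib3, Chac1, Asns, Sesn2, Hspa5, Xbp1, Herpud1 and Dnajb9. They were chosen by name, with earlier results of these data known. Every probe whose RefSeq accession maps to them was taken, which gave 12 of the 55681 probes of the array and 10 of 20956 named genes with a value. All 10 were found. Total RNA came from 3T3-L1 cells, an established clonal line of mouse preadipocytes that becomes fat cells under adipogenic hormones, and was hybridised in 1 colour to Agilent mouse arrays. The 4 groups are control cells at day 0, Lamp2a knockdown cells at day 0, control cells at day 2 and Lamp2a knockdown cells at day 2. All were grown to confluence, which is day 0, in DMEM that held heat-inactivated serum (10%) from fetal calves, plus antibiotics. The day 2 cells then received 160 nM insulin, 250 nM dexamethasone and 0.5 mM isobutylmethylxanthine in the same medium. No day 2 culture without the hormones is among the samples, so the hormones and time cannot be told apart. LAMP2A is the splice form of a lysosomal membrane protein that serves as receptor in chaperone-mediated autophagy. The method of knockdown, and what the control cells received, are not given in the sources used here.

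With 1 array in each group, differences below lack a replicate check, and no test or p-value accompanies them. Signals were divided by the 75th percentile of their array, and a ratio of 2-fold or more between 2 such values calls a gene. Precision is limited by the number of arrays. The members' probes were printed once each, but 145 other probes in the members' range of signal were printed 10 times, and their spots gave a median SD of the log2 ratio of 0.03 to 0.07 in the 5 comparisons. That is error within arrays and holds nothing of the spread between cultures.

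Cells meet a shortage of amino acids, misfolded protein in the endoplasmic reticulum or other stresses by phosphorylating the translation factor eIF2 alpha. General translation then falls, while the mRNA of the transcription factor ATF4 is translated more, and ATF4 induces genes for amino acid supply, redox balance and, under lasting stress, cell death. This is the integrated stress response. The unfolded protein response feeds into it through the kinase PERK and has its own arms: IRE1 splices the Xbp1 mRNA and ATF6 is cut to an active factor, and both induce chaperones and degradation factors of the endoplasmic reticulum. Fat cells secrete many proteins, and the factors C/EBP beta and CHOP, a dimer partner that holds C/EBP beta from DNA, also act in the conversion of 3T3-L1 cells. Arrays read mRNA, so neither ATF4 protein, nor eIF2 alpha phosphorylation, nor Xbp1 splicing was measured here. Atf4, Ddit3, Trib3, Chac1, Asns and Sesn2 are called the ATF4 arm below, and Hspa5, Xbp1, Herpud1 and Dnajb9 the endoplasmic reticulum arm.

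The promoters of 5 members hold a match to a known element of these responses. Whether these elements bear on the array values was not tested. Windows of 300 bases, from 250 before to 50 after the RefSeq start in GRCm38.p6, were searched on both strands, and all 10 members had a window. The short form of the C/EBP-ATF response element, TGATGNAA, to which ATF4 dimers are known to bind, was in the windows of Trib3, Chac1, Asns and Herpud1, 4 of 10 members, and in 3.97% of 32851 promoters of 27025 genes. The endoplasmic reticulum stress element, CCAAT and CCACG with 9 free bases between them, bound by ATF6 with NF-Y, was in 0.119% of promoters and in the Hspa5 window. Its second form, ATTGG and CCACG with 1 free base between them, was in 0.0365% of promoters and in the Herpud1 window. These motifs do not overlap within the members' windows. The sequences read 5′ to 3′ on the strand of the gene, with the match in capitals.
Trib3: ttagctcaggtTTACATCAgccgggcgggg
Chac1: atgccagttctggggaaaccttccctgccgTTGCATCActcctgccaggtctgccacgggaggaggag
Asns: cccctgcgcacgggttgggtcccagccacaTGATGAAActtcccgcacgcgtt
Hspa5: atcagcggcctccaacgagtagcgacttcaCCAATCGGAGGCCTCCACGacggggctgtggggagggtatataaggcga
Herpud1: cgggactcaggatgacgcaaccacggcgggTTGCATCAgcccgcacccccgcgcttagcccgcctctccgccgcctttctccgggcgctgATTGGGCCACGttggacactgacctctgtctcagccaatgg
The stretches lie at chr2:152344028-152344057 (minus strand) for Trib3, chr2:119351019-119351086 (plus strand) for Chac1, chr6:7693210-7693262 (minus strand) for Asns, chr2:34771995-34772073 (plus strand) for Hspa5 and chr8:94386287-94386417 (plus strand) for Herpud1. In Trib3, Chac1 and Herpud1 the C/EBP-ATF element reads on the opposite strand, as TTACATCA or TTGCATCA, and in Asns it reads on the strand of the gene, as TGATGAAA. It begins 23 bases before the start in Asns, 112 before it in Herpud1 and 193 before it in Chac1, while in Trib3 it lies from base 14 to base 21 after the start. The Hspa5 element begins 65 bases and the Herpud1 element of the second form 52 bases before the start. The unfolded protein response element core TGACGTGG (0.676% of promoters) and the cyclic AMP response element TGACGTCA (1.79%) were in none of the 10 windows, and Atf4, Ddit3, Sesn2, Xbp1 and Dnajb9 had none of the 5 motifs. A match is a run of letters and not a binding site shown to be used, and its absence says only that these letters are not in this window.

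**Figure D1:**
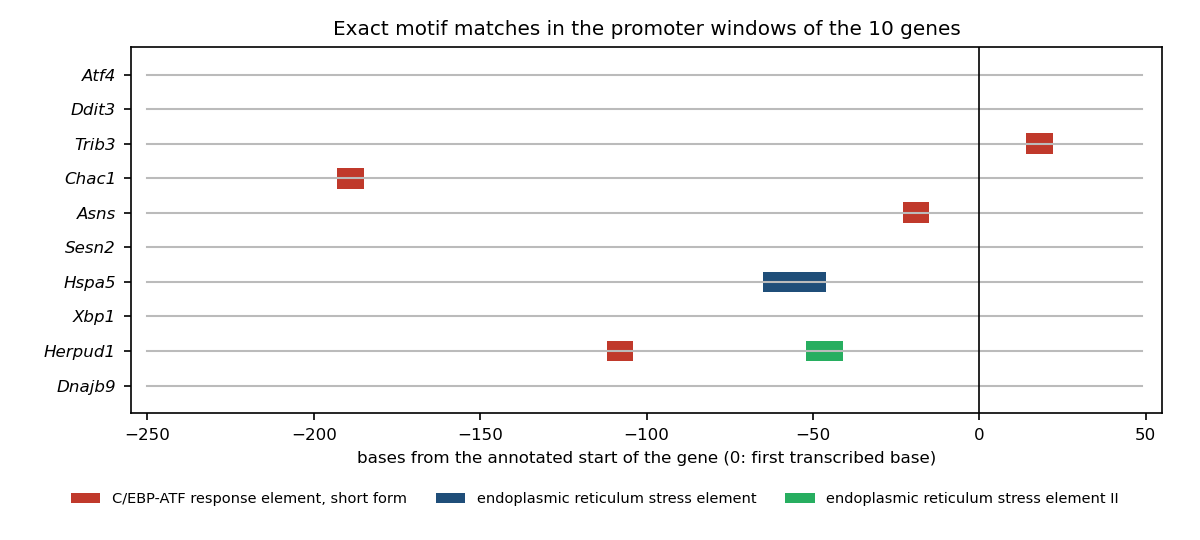
Positions of the motif matches in the promoter windows of the 10 members; the x axis is the distance in bases from the RefSeq start and each mark is 1 match. Trib3, Chac1, Asns and Herpud1 hold the C/EBP-ATF element, and Hspa5 and Herpud1 each hold 1 form of the endoplasmic reticulum stress element.

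The arrays differed in ways that touch the comparisons. Spots well above background made up 67.4% to 88.6% of 59305, lowest on the control day 0 array, where the median signal of 1072 olfactory receptor genes (nasal receptors with no known role in fibroblasts) was 11.2 against 23.8 to 39.8 on the other arrays. The control day 0 array was alone on slide 1 and the other 3 arrays were on slide 2, so in the comparisons that use it slide and group cannot be told apart. Counts are therefore also given for the 11394 bright genes, whose mean level lay above the 95th percentile of those receptor genes. The members are all bright, and every member probe was well above background on all 4 arrays with no saturated or outlier spot. Of 10 fibroblast and preadipocyte markers, 9 or 10 were well above background on each array, with summed signals from 899512 to 1702810, while the summed signals of 5 epithelial markers lay between 203 and 831, those of 5 endothelial markers between 4372 and 5353, and those of 7 macrophage and leukocyte markers between 29219 and 53255. The 2 Lamp2 probes gave different readings: that annotated to NM_001017959 read 4.13-fold (day 0) and 3.51-fold (day 2) lower in the knockdown, and that annotated to NM_010685 1.29-fold and 1.08-fold lower. In bulk RNA, fewer cells with an mRNA and less of it per cell cannot be told apart.

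At day 0, Ddit3, Trib3 and Chac1 were lower in the Lamp2a knockdown than in the control, and at day 2 no member differed by 2-fold. From day 0 to day 2, Trib3, Chac1 and Herpud1 were lower in both kinds of cell, and Ddit3 was lower in control cells. The control day 0 array, which was alone on its slide, was the highest of the 4 for Ddit3, Trib3, Chac1, Herpud1, Asns and Sesn2. It was also the highest at the second probes of Atf4 and Dnajb9. Hspa5, Xbp1, Dnajb9, Sesn2, Asns and Atf4 stayed within 2.18-fold over the 4 arrays at the probe that stands for the gene.

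**Figure D2:**
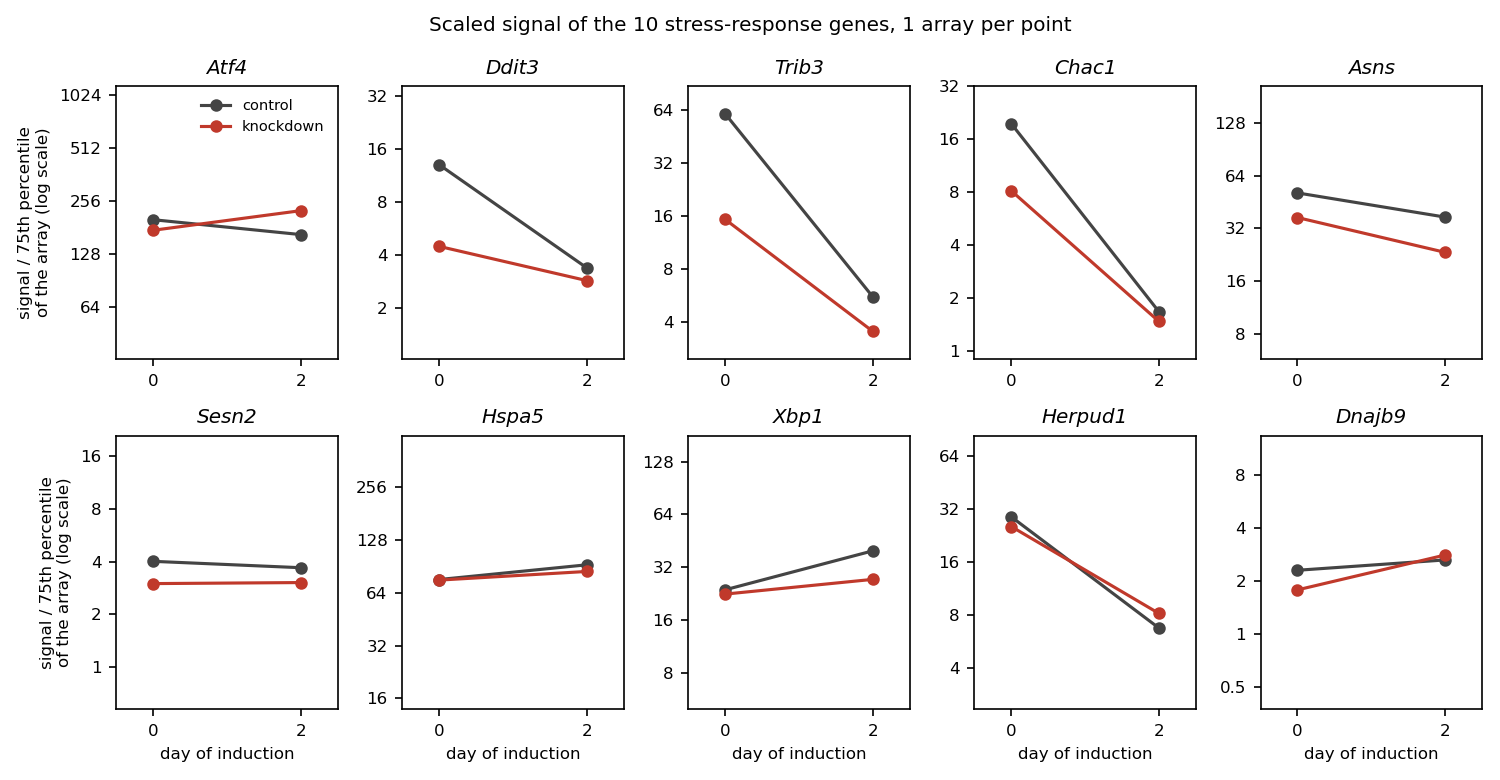
Scaled signal of the probe standing for each of the 10 members, 1 panel per gene, at day 0 and day 2 (x axis, day) in control and in knockdown cells; the y axis is the processed signal over the 75th percentile of the array on a log scale that differs between panels in position, and each point is 1 array, so there are no error bars. Trib3 spans 17.3-fold and Chac1 13.4-fold over the 4 arrays, Herpud1 is lower at day 2 in both kinds of cell, and Hspa5 spans 1.22-fold.

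Atf4 encodes the transcription factor at the centre of the response. Its brightest probe had processed signals of 318000 in control and 289799 in knockdown cells at day 0, and of 204010 and 248248 at day 2. After scaling, the knockdown was 1.15-fold lower than the control at day 0 and 1.37-fold higher at day 2, and the 4 arrays lay within 1.37-fold. The second Atf4 probe read 14800 and 10106 at day 0 and 5985 and 6988 at day 2. It was 1.53-fold lower in the knockdown at day 0, 1.31-fold higher at day 2 and 1.93-fold lower at day 2 than at day 0 in control cells. Both probes went the same way in the knockdown comparison at each day, and neither was past 2-fold at either day. They differed in size: from day 0 to day 2 the knockdown log2 ratio went up by 0.65 at the brightest probe and by 1.01 at the second. In knockdown cells over time the brightest probe was 1.29-fold higher at day 2, a value that turned below 0 (log2 -0.06) under quantile normalization.

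Ddit3 encodes CHOP, a transcription factor that ATF4 induces and that is known for its part in stress-induced cell death. Its processed signals were 20800 in control and 7462 in knockdown cells at day 0, and 4192 and 3154 at day 2. The control day 0 array stands apart above the other 3, and the day 2 arrays are close to each other. Ddit3 was 2.92-fold lower in the knockdown at day 0 (log2 ratio -1.55) and 1.18-fold lower at day 2. Over time it was 3.87-fold lower in control cells and 1.57-fold lower in knockdown cells. Its knockdown log2 ratio was thus 1.30 higher at day 2 than at day 0.

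Trib3 encodes a pseudokinase that ATF4 and CHOP induce and that restrains AKT signalling and ATF4 itself. Its processed signals were 97400 in control and 25551 in knockdown cells at day 0, and 6885 and 3895 at day 2. Scaled levels ran down in that same order of the arrays, over a 17.3-fold span. The knockdown was 3.99-fold lower at day 0, and at day 2 it was 1.57-fold lower. Among all 19268 genes compared at day 0, Trib3 had the 263rd lowest log2 ratio, and it was 79th among the bright genes. At day 2 it was 11.0-fold lower than at day 0 in control cells and 4.34-fold lower in knockdown cells, and its knockdown log2 ratio was 1.34 higher at day 2 than at day 0.

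Chac1 encodes an enzyme that breaks down glutathione and lies downstream of ATF4. Processed signals of 31200 in control and 13556 in knockdown cells at day 0 stood against 2066 and 1618 at day 2. Both day 0 arrays were above both day 2 arrays. The knockdown was 2.41-fold lower at day 0, against 1.14-fold at day 2. Over time Chac1 was 11.8-fold lower in control cells, where it had the 90th lowest log2 ratio of 18655 genes, and 5.55-fold lower in knockdown cells. From day 0 to day 2 its knockdown log2 ratio went up by 1.09, a value that missed 2-fold under cyclic loess normalization (0.998) and with the median of the brightest 20% of genes as the scaling value (0.93).

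Asns, the asparagine synthetase, makes asparagine from aspartate and is a classical target of ATF4 when amino acids run short. It had processed signals of 81000 in control and 61427 in knockdown cells at day 0, and of 45997 and 25771 at day 2. The control was above the knockdown at each day, and day 0 above day 2 in each kind of cell, and no such step reached 2-fold. The knockdown was 1.38-fold lower at day 0, against 1.59-fold at day 2, and day 2 was 1.37-fold lower than day 0 in control cells and 1.58-fold lower in knockdown cells. Its differences were smaller than those of Trib3 and Chac1 in both comparisons over time and in that of day 0. At day 2 the log2 ratio was -0.67 for Asns, -0.65 for Trib3 and -0.18 for Chac1.

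Sesn2 encodes sestrin 2, a leucine sensor that restrains mTORC1 and is induced by ATF4 and p53. The processed signals were 6380 in control and 4990 in knockdown cells at day 0, and 4577 and 3350 at day 2. The knockdown was 1.34-fold lower at day 0, against 1.22-fold at day 2. Over time the scaled level differed by 1.09-fold in control cells, day 2 being lower, and by 1.01-fold in knockdown cells.

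In the endoplasmic reticulum arm, Hspa5 encodes BiP, the main chaperone of the lumen and the usual marker of the unfolded protein response. The 4 processed signals were 121000 in control and 125797 in knockdown cells at day 0, and 114477 and 93324 at day 2. The scaled levels lay within 1.22-fold of each other. The knockdown log2 ratio was -0.01 at day 0, its sign depending on the scaling, and -0.13 at day 2. Day 2 was 1.21-fold above day 0 in control cells and 1.12-fold in knockdown cells, and both turned below 0 under quantile normalization (the first at log2 -0.07), so Hspa5 has no settled direction over time.

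Xbp1 encodes the factor whose mRNA is spliced by IRE1, and the probe does not tell the spliced from the unspliced form. Its processed signals were 37900 in control and 37515 in knockdown cells at day 0, and 49269 and 30139 at day 2. The control day 2 array was the highest after scaling, 1.67-fold above control day 0. In knockdown cells the increase over time was 1.21-fold. At day 2 the knockdown was 1.45-fold lower than the control, and at day 0 the log2 ratio was -0.08, which turned to 0.01 when scaled to the brightest 20% of genes.

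Herpud1 encodes a membrane protein that helps to send misfolded protein from the endoplasmic reticulum to the proteasome. Its processed signals were 46100 in control and 42515 in knockdown cells at day 0, and 8363 and 9010 at day 2. The days did not overlap, and within each day control and knockdown were close. Herpud1 was 4.30-fold lower at day 2 in control cells and 3.13-fold lower in knockdown cells. The knockdown was 1.14-fold lower at day 0 and 1.21-fold higher at day 2. It was the only member of its arm past 2-fold in any of the 5 comparisons.

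Dnajb9 encodes ERdj4, a co-chaperone of BiP that XBP1 induces. Its processed signals were 3670 in control and 2972 in knockdown cells at day 0, and 3278 and 3109 at day 2. The knockdown was 1.29-fold lower at day 0 and 1.07-fold higher at day 2, and day 2 was 1.15-fold above day 0 in control and 1.58-fold above it in knockdown cells. The second Dnajb9 probe, with signals of 143 to 208, was 1.19-fold lower in the knockdown at day 0 and 1.08-fold higher at day 2. Over time in control cells the probes went opposite ways, with log2 ratios of 0.20 and -0.11.

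**Figure D3:**
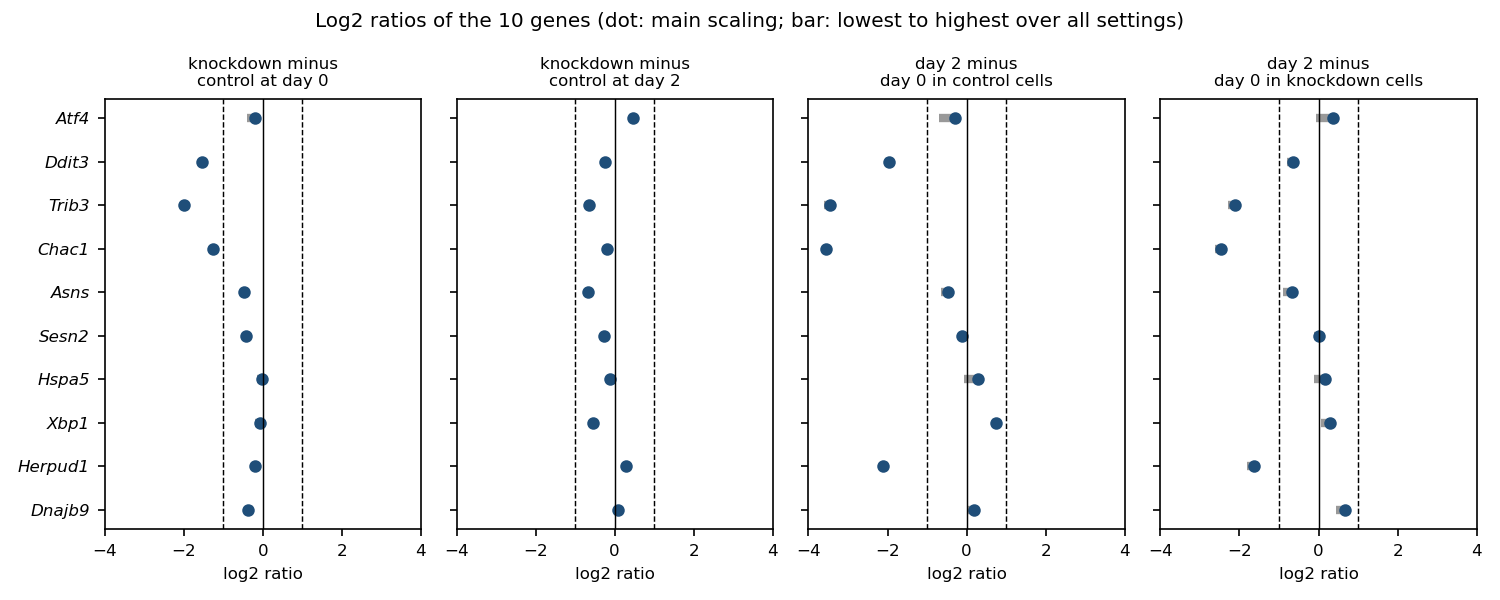
Log2 ratios of the 10 members (x axis) in the 2 knockdown and 2 time comparisons; the dot is the reported value, the grey bar the range over it and the 11 other settings, and the dashed lines mark 2-fold. Ddit3, Trib3 and Chac1 lie below -1 in the knockdown at day 0 under every setting run, and no member lies outside 2-fold at day 2.

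Set against all genes, the knockdown comparison at day 0 had 3 of 10 members at least 2-fold lower and 0 higher. In the same comparison 4.18% of 19268 compared genes were at least 2-fold lower and 18.3% higher, and of the bright genes 3.1% were lower and 5.63% higher. All 10 members had log2 ratios below 0 there, with a median of -0.40, beside 36.7% of all compared genes and 52.0% of bright genes below 0 and medians of 0.12 and -0.02. The 3 lower members all belong to the ATF4 arm, whose median was -0.87, and the 4 members of the endoplasmic reticulum arm had a median of -0.13. The sign of Hspa5 and Xbp1 depended on the scaling, as given above, so the count of 10 below 0 does too. This comparison crosses slides. The members were chosen with earlier results of these data known, so counts of members beside shares of all genes describe and test nothing.

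At day 2 the 2 arrays share a slide, and 0 members were at least 2-fold lower or higher, where 3.98% of 18559 genes were lower and 2.86% higher, and 3.61% of bright genes were lower and 3.02% higher. The log2 ratios ran from -0.67 for Asns to 0.45 for Atf4, with a median of -0.21 beside 0.00 over all compared genes. Asns, Trib3 and Xbp1 had the lowest values, of -0.67, -0.65 and -0.54. Atf4, Herpud1 and Dnajb9 were above 0. With a size of 1.5-fold in place of 2-fold, 2 members, Asns and Trib3, were lower.

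In control cells, 4 of 10 members were at least 2-fold lower at day 2 than at day 0, where 8.09% of 18655 genes were lower and 19.9% higher, and 7.75% of bright genes were lower and 7.6% higher. They were Chac1, Trib3, Herpud1 and Ddit3. The 6 members of the ATF4 arm had log2 ratios from -3.56 to -0.12 and a median of -1.20, and in the endoplasmic reticulum arm 3 of 4 were above 0. In knockdown cells, whose arrays share a slide, 3 of 10 members were at least 2-fold lower, Chac1, Trib3 and Herpud1, where 8.94% of 19196 genes were lower and 4.97% higher, and 9.22% of bright genes were lower and 6.17% higher. Ddit3 stood at a log2 ratio of -0.65 there. The ATF4 arm had a median of -0.65 with 4 of 6 below 0. All 8 fat-cell markers had a log2 ratio above 0 over time in control cells, 7 of them past 2-fold. Of these, Adipoq, Plin1, Cidec and Lep are dim, and among the 4 bright markers Fabp4, Pparg and Cebpa were past 2-fold. In knockdown cells 6 of 8 were above 0 and 1, Fabp4, past 2-fold. Between knockdown and control, Fabp4 was 5.34-fold higher at day 0 and 6.14-fold higher at day 2. At day 0, 3 of 8 markers were at least 2-fold higher in the knockdown, Fabp4 and the dim Cidec and Lep, and 1, Cebpa, was 2.00-fold lower. Over all compared genes 18.3% were higher and 4.18% lower there. Of the 4 bright markers, 2 were above 0 and 2 below at day 0. At day 2, 4 of 8 markers (Adipoq, Plin1, Pparg and Cebpa) were at least 2-fold lower in the knockdown, where 3.98% of all compared genes were. The part of differentiation in the members' values was not tested.

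**Figure D4:**
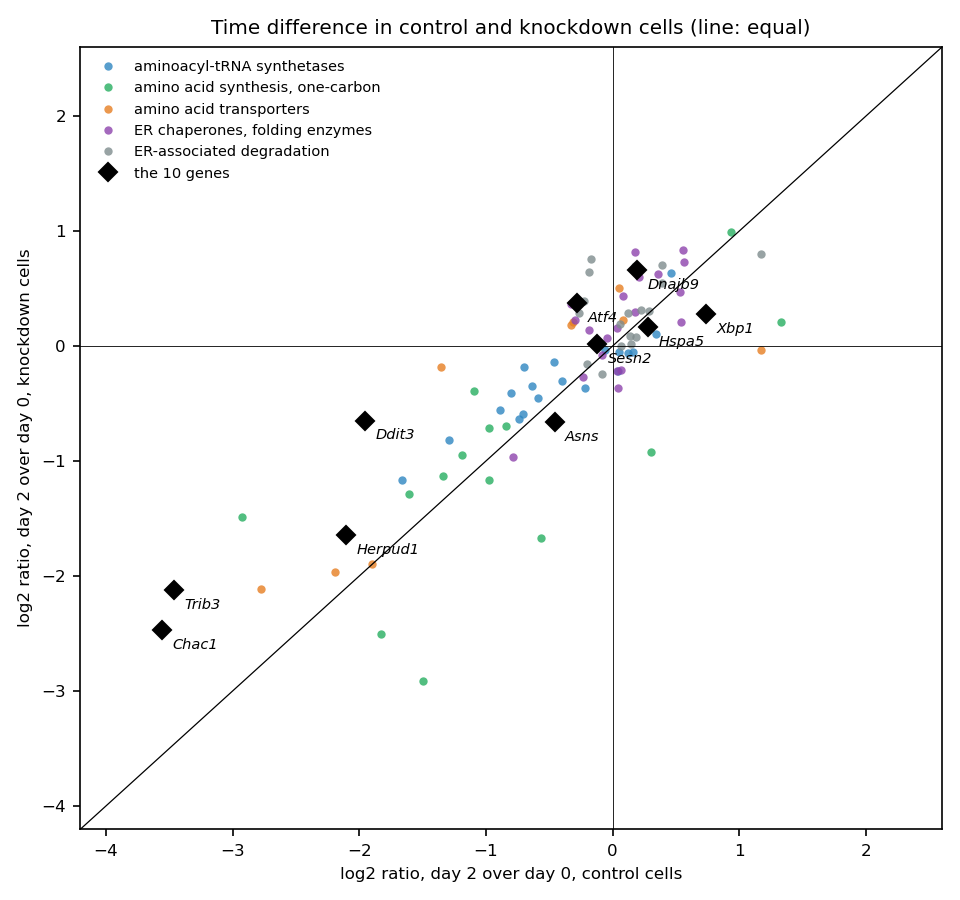
Log2 ratio of day 2 over day 0 in control cells (x axis) against that in knockdown cells (y axis) for the 10 members (diamonds) and the bright genes of 5 pathway lists (coloured points); on the diagonal both are equal. Chac1, Trib3 and Ddit3 lie above the diagonal, with -3.56, -3.46 and -1.95 in control cells against -2.47, -2.12 and -0.65 in knockdown cells.

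The knockdown log2 ratio at day 2 minus that at day 0 uses all 4 arrays and shares them with the comparisons above. It was at least 1 (2-fold) for Trib3, Ddit3 and Chac1, 3 of 10 members, where 2.9% of 15464 genes were higher by that size and 16.9% lower, and 2.66% of bright genes were higher and 6.63% lower. No member was lower by that size. The median over the members was 0.46 beside -0.03 over all compared genes and 0.09 over bright genes. In Trib3 the knockdown log2 ratio was -2.00 at day 0 and -0.65 at day 2, in Ddit3 -1.55 and -0.24 and in Chac1 -1.27 and -0.18. Asns, Hspa5 and Xbp1 had negative differences, of -0.20, -0.12 and -0.46.

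Around the members, 175 further genes in 11 lists cover the pathway. Among 19 sensors and regulators of eIF2 alpha, Eif2ak2, which encodes the kinase PKR and is also an interferon-stimulated gene, was 2.48-fold lower in the knockdown at day 0 and 2.69-fold lower over time in control cells. Eif2ak2 was 1.87-fold lower in the knockdown at day 2 and 2.03-fold lower over time in knockdown cells, the latter past 2-fold in 9 of 11 other settings. Ppp1r15a encodes GADD34, the subunit that directs a phosphatase to eIF2 alpha and is itself induced by ATF4 and CHOP. It had processed signals of 11600 in control and 6185 in knockdown cells at day 0, and of 5823 and 8538 at day 2. Its knockdown log2 ratio was -0.97 at day 0 and 0.72 at day 2, a difference of 1.70. The other 17 genes, which include the PERK gene Eif2ak3, the IRE1 gene Ern1 and Atf6, were within 2-fold in all 5 comparisons. Over these comparisons 2.66% to 7.6% of bright genes were at least 2-fold higher and 3.1% to 9.22% lower.

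Of 11 bZIP partners of ATF4 and CHOP, 10 had a log2 ratio below 0 in the knockdown at day 0. This comparison crosses slides, and 36.7% of all compared genes and 52.0% of bright genes were below 0 in it. The median of the list was -0.34. Atf3, a stress-induced repressor, was past 2-fold, where 4.18% of all compared genes were at least 2-fold lower. Its processed signals were 1360 in control and 589 in knockdown cells at day 0, and 221 and 198 at day 2. Atf3 was thus 2.42-fold lower in the knockdown at day 0, and its knockdown log2 ratio was 0.01 at day 2. Over time in control cells Atf3 was 4.79-fold, Creb3l1 4.46-fold and Atf5 2.33-fold lower, and Cebpb, which drives early adipogenesis, was 3.48-fold higher. In knockdown cells Cebpb was 5.16-fold higher and Creb3l1 4.34-fold lower, and Jdp2 was 2.43-fold lower.

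Amino acid supply is a main output of ATF4. Of 14 enzymes of amino acid synthesis and the folate cycle, 7 were at least 2-fold lower over time in control cells and 7 in knockdown cells, where 8.09% and 8.94% of all compared genes were lower, with median log2 ratios of -1.03 and -1.04 over the list. Cbs, which makes cystathionine, was 2.51-fold higher over time in control cells, a value that missed 2-fold under quantile and cyclic loess normalization. Phgdh, the first enzyme of serine synthesis, was 3.55-fold lower in control and 5.66-fold lower in knockdown cells, and Psph, the last, 3.04-fold and 2.43-fold. Aldh1l2, a mitochondrial folate enzyme, was 7.58-fold lower in control and 2.81-fold lower in knockdown cells. In the knockdown at day 0 this list had a median of 0.13. Of its 14 genes 0 were at least 2-fold lower there, where 4.18% of all compared genes and 3.1% of bright genes were. Cbs was 2.51-fold higher in the knockdown at day 0, again not past 2-fold under those normalizations. At day 2 Mthfd2, the mitochondrial folate enzyme that ATF4 induces, was 3.30-fold lower in the knockdown, with processed signals of 8810 in control and 2376 in knockdown cells, beside 9170 and 6797 at day 0. For the difference between days, 4 of 14 genes were at least 2-fold lower: Shmt1 (-1.42), Mthfd2 (-1.22), Cbs (-1.12) and Psat1 (-1.10). Only Aldh1l2 (1.43) was higher by that size. Over all compared genes 16.9% were lower and 2.9% higher there, and of bright genes 6.63% and 2.66%. Over the settings the lower count ran from 3 to 4.

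Of 11 amino acid transporters, 5 were at least 2-fold lower over time in each kind of cell, beside the same shares of all genes. The count ran from 3 to 6 in control and from 3 to 5 in knockdown cells over the settings, and it includes the dim genes Slc7a11 (both kinds of cell) and Slc43a1 (knockdown cells). Of the 9 bright transporters, 6 were below 0 in control cells and 5 in knockdown cells, with medians of -0.33 and -0.04. The glycine transporter gene Slc6a9 was 6.84-fold lower in control and 4.32-fold lower in knockdown cells, and Slc7a1, for cationic amino acids, was 3.72-fold and 3.71-fold lower. Slc7a5, the leucine transporter gene, was 2.24-fold lower in the knockdown at day 0 and 4.56-fold lower over time in control cells at its brightest probe, but its other probe went the opposite way, with log2 ratios of 0.60 and 0.78, so Slc7a5 has no settled direction. Slc1a5, a glutamine transporter gene, was 2.25-fold higher over time in control cells and 3.11-fold lower in the knockdown at day 2. Of 20 cytosolic tRNA synthetases, Aars was 3.17-fold and Cars 2.45-fold lower over time in control cells, and Aars 2.24-fold lower in knockdown cells. None of the 20 was past 2-fold between knockdown and control at either day. Of bright genes 3.1% were lower and 5.63% higher at day 0, and 3.61% lower and 3.02% higher at day 2. Over time 14 of the 20 synthetases were below 0 in control cells and 18 in knockdown cells. Of all compared genes 36.7% and 48.3% were below 0 in these 2 comparisons, and of bright genes 48.1% and 43.4%.

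Other genes known to be induced by ATF4 or CHOP did not move as a block. Of 15 compared over time in control cells, 5 were at least 2-fold lower and 2 higher. Over all compared genes 8.09% were lower and 19.9% higher there, and of bright genes 7.75% were lower and 7.6% higher. Of 16 in knockdown cells 5 were lower and 3 higher, where 8.94% of all compared genes were lower and 4.97% higher. Of bright genes 9.22% were lower and 6.17% higher in knockdown cells. The lower count in knockdown cells ran from 3 to 6 over the settings. Nupr1 was 3.14-fold lower in control and 3.06-fold lower in knockdown cells, and Bbc3, which encodes the death factor PUMA, 2.50-fold and 4.91-fold. Ddit4, which restrains mTORC1 and also responds to glucocorticoids, was 4.96-fold and 4.19-fold higher, and Vegfa 2.77-fold and 7.05-fold. Ero1a, an oxidase of the endoplasmic reticulum that CHOP induces, was 2.14-fold lower in the knockdown at day 0, with processed signals of 5240 in control and 2560 in knockdown cells, and its knockdown log2 ratio was 0.31 at day 2. In the knockdown at day 0, 8 of the 16 genes were above 0 and 8 below, where 36.7% of all compared genes and 52.0% of bright genes were below 0. Of the 13 bright genes of the list, 5 were above 0 and 8 below at day 0, with a median of -0.18. Fgf21 and Stc2 were higher there, with log2 ratios of 1.19 and 1.09. Both were dim, and these differences missed 2-fold under normexp and under quantile and cyclic loess normalization.

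Of 20 chaperones of the endoplasmic reticulum, all bright, 0 were past 2-fold in any of the 5 comparisons, and neither was Hspa5. Over the 5 comparisons 2.66% to 7.6% of bright genes were at least 2-fold higher and 3.1% to 9.22% lower. Under other settings the count of chaperones reached 1 lower over time in knockdown cells and 1 higher for the difference between days. The medians of the chaperones were -0.10 for the knockdown at day 0, 0.00 at day 2, 0.05 over time in control cells and 0.22 in knockdown cells. Among 20 genes of degradation from the endoplasmic reticulum, the list Herpud1 belongs to by function, Derl3, which is dim, and Ube2g2 were past 2-fold and higher in control cells over time. Derl3 missed 2-fold under normexp, quantile and cyclic loess (lowest log2 ratio 0.11), and Ube2g2 with the median over its probes (0.96). In the 2 knockdown and 2 time comparisons none was at least 2-fold lower, where 3.1% to 9.22% of bright genes were. Of 23 genes of the translocon and early secretory pathway, Kdelr3 was 3.02-fold lower over time in control cells and 2.03-fold higher in the knockdown at day 2, the latter past 2-fold in 8 of 11 other settings. The 9 mitochondrial stress genes held 1 gene past 2-fold in any comparison, Atf5. Among 11 cytosolic heat shock genes, Cryab was 2.22-fold lower in the knockdown at day 0, 3.66-fold lower at day 2 and 10.2-fold and 16.9-fold lower over time in control and knockdown cells, and Bag3 was 3.49-fold higher over time in knockdown cells.

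**Figure D5:**
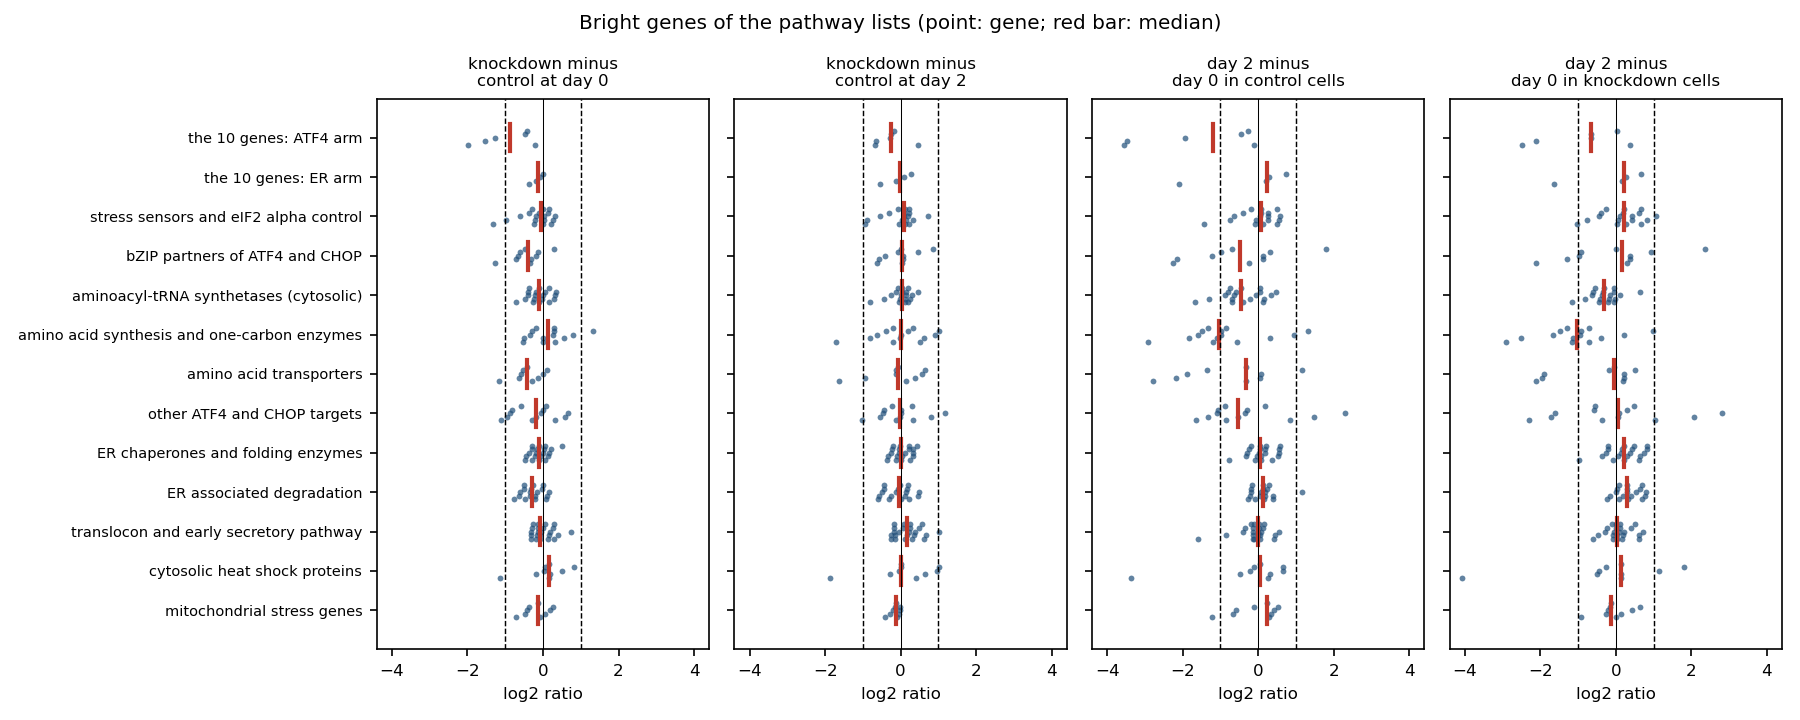
Log2 ratios (x axis) of the bright genes of the pathway lists and of the members by arm in 4 comparisons; each point is 1 gene, the red bar the median of the bright genes of a list, and the dashed lines mark 2-fold. Genes of amino acid synthesis lie mostly below 0 over time in both kinds of cell, with medians of -1.03 and -1.04, and chaperones of the endoplasmic reticulum stay within 2-fold.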

How the data were processed

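Total RNA of 4 cultures was labelled with Cy3 and hybridised to Agilent arrays of design 028005, 1 culture per array, and groups came from the labels. The deposited intensity values are processed signals that, per the file headers, Agilent Feature Extraction wrote (version 10.7.3.1): a spatial background was subtracted and a multiplicative detrending applied, except on the knockdown day 0 array. They are linear and not normalised between arrays. Here the log2 of the processed signal minus that of the array's 75th percentile over non-control spots was taken, outlier spots were left out, repeat spots averaged, and the brightest probe stands for a gene. Probes were named by RefSeq accession through a table of assembly GRCm38.p6 (27656 probes), and promoters come from RefSeq on the same assembly. A gene was compared where well above background on at least 1 of the 2 arrays, a dim side being raised to the array's lowest level well above background where it lay under it, and for the difference of ratios on all 4 arrays. A 2-fold size calls a gene; no test was run. The members and lists were chosen with earlier results of these data known. From each list, up to 3 genes past 2-fold per comparison and direction, by size, could be named, and not all are printed; genes within 2-fold are named only as members of a list. Software was R 4.3.3, limma 3.58.1, Python 3.11.15, numpy 2.4.6, pandas 2.3.3 and matplotlib 3.10.9.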

Additional observations from a re-analysis of the deposited data

Results flagged for a closer look

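Atf4 had a knockdown log2 ratio of -0.20 at day 0 and of 0.45 at day 2, opposite directions that held in 11 of 11 other settings. Herpud1 had -0.18 at day 0 and 0.28 at day 2, and Dnajb9 -0.37 and 0.09, each opposite in 11 of 11 other settings. Over time, Atf4 had a log2 ratio of -0.28 in control and 0.37 in knockdown cells, opposite in 10 of 11 other settings, and Sesn2 -0.12 and 0.02, opposite in 7 of 11. What drew attention in each is that the effects have opposite signs. The counts of settings include those that changed only the filter on dim genes or kept outlier spots, which could not alter these ratios. Taking the median over all probes could not alter those of Herpud1 and Sesn2, which have 1 probe each. With 1 array per group, none of these differences was tested, and all lie within 2-fold.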

How the results depend on the processing

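Of the 13 member ratios past 2-fold, 12 were so under each of 11 other settings of background correction, normalization, dim-gene filter, probes and outlier spots. The exception is the Chac1 difference between days given above. Settings that changed only the dim-gene filter or kept outlier spots could not alter any member ratio. All members are bright, well above background on every array and without outlier spots. Ddit3, Trib3, Chac1 and Herpud1 have 1 probe each, so taking the median over all probes could not alter their ratios either. For these genes only the settings of background correction and normalization, with its scaling, could have changed a ratio. Of 50 member ratios 43 kept their sign in each setting, and the other 7 were within 2-fold: Hspa5 and Xbp1 in the knockdown at day 0, Hspa5 over time in control cells, Atf4, Sesn2 and Hspa5 over time in knockdown cells, and the Sesn2 difference. Of 120 counts of members, 116 were within 1.5 times of the reported count; the other 4 came with a 1.5-fold size, under which 2 members were lower in the knockdown at day 2, 1 was higher over time in control cells, and in knockdown cells 1 was higher and 5 lower over time. The lower share of all 2-fold calls moved with the normalization: it was 18.6% in the knockdown at day 0, 54.1% under quantile and 63.5% under cyclic loess normalization, then 28.9%, 62.8% and 69.5% over time in control cells, and 85.3%, 55.3% and 43.1% for the difference between days. Both normalizations shift the median of all genes by -0.12 in the knockdown at day 0 and by -0.18 over time in control cells, scaling to the brightest 20% of genes shifts it by -0.12 over time in knockdown cells and by -0.15 for the difference, and the difference is shifted by 0.11 under cyclic loess and by -0.14 with no filter on dim genes. Restricting to bright genes lowers the medians of the day 0 and control time comparisons (shifts of -0.14 and -0.16) and raises that of the difference by 0.11 through its choice of genes, and leaves the members' values as they are. The cause of these shifts was not tested. No paired analysis was possible because each group has 1 array, and no array could be left out for the same reason.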
